A study of Mus musculus with 1279 samples.

Results

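The genes described here make, break down, bind or respond to retinoic acid: the dehydrogenases Aldh1a1, Aldh1a2 and Aldh1a3, the hydroxylases Cyp26a1 and Cyp26b1, the binding proteins Crabp1 and Crabp2, the receptor Rarb and the responsive gene Rarres2. They were chosen by name and are 9 of the 46517 genes counted in 1279 single cells of the adult mouse heart. Each cell was sorted into a well and its full-length cDNA was sequenced without molecular identifiers. All cells came from male mice aged 10 to 20 weeks. The 581 cells labelled C57BL6 were sorted with antibodies to PDGFRα or PDGFRβ. The other cells carried a reporter transgene under the promoter of Pdgfrb (PdgfrbGFP, 364 cells), Cspg4 (Cspg4dsRED, 163 cells) or Acta2 (Acta2GFP, 171 cells), in mice backcrossed to C57Bl6/J. CD31-positive endothelial cells were excluded from every sort, and elastase was added when the Acta2GFP hearts were dissociated. Each reporter strain was on 1 plate, so for these strain, sort and plate cannot be told apart. C57BL6 was on 3 plates, with 329, 251 and 1 cells. The labels name no animal, and p-values below measure only the spread between sums of cells per strain, which may be technical.

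Retinoic acid is made from retinol in 2 oxidation steps, through retinaldehyde, and the retinaldehyde dehydrogenases of the Aldh1a family carry out the last of them. Cyp26 enzymes hydroxylate retinoic acid and so remove it, Crabp proteins carry it inside the cell, and it acts by binding nuclear receptors that sit on DNA as dimers with a retinoid X receptor. In the developing heart Aldh1a2 is the main source of retinoic acid and is known from the epicardium, and Cyp26a1 and Rarb are classical genes that retinoic acid switches on.

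The authors' labels place the cells in 8 clusters, of 70, 219, 112, 233 and 292 cells for clusters 1 to 5 and of 39, 118 and 196 cells for clusters 6 to 8. Counts were summed over the cells of each strain in each cluster and given as CPM (counts per 1000000), and the 27 of 31 sums with at least 3 cells were used. Fibroblast markers were abundant in clusters 1 to 5, with 10005 to 14027 CPM summed over Pdgfra, Col1a1, Dcn, Lum and Col3a1. Cluster 1 also held 4457 to 6511 CPM of the valve interstitial list (Wif1, Comp, Fmod, Scx, Cyp2e1), against at most 1298 CPM elsewhere. Smooth muscle markers reached 9946 to 15717 CPM in clusters 6 and 7, and pericyte markers 4057 to 15046 CPM in cluster 8. Cluster 6 held 2709 to 13185 CPM of the fibroblast list beside its smooth muscle genes, so its place among the mural cells rests on the latter. A mural list (Rgs5, Notch3, Mcam, Cspg4, Pdgfrb) did not set it apart. Its sums of 993 to 2056 CPM overlapped the 149 to 1086 CPM of clusters 1 to 5 and lay below the 5144 to 14747 CPM of clusters 7 and 8. Epicardial and mesothelial markers stayed at or below 0.839 CPM in every sum, with Msln, Lrrn4 and Bnc1 at 0 reads. Median depth was 167874 (cluster 8) to 349816 (cluster 4) reads per cell, and Acta2GFP cells held a median of 6388 detected genes against 3358 to 4265 in the other strains.

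Promoters of genes that respond to retinoic acid often carry a direct repeat of a receptor-binding hexamer. The 250 bases before the RefSeq start (build GRCm38.p6) were searched on both strands, in 7 promoters of 6 genes, for pairs of receptor hexamers in the same direction, spaced by 1, 2 or 5 bases. The hexamers allowed were AGGTCA and AGTTCA, and also GGGTCA and GGTTCA. Aldh1a3, Crabp2 and Rarres2 were not searched. Of 32851 promoters of the same length, 29 (0.0883%) held the repeat spaced by 5 bases, 57 (0.174%) the repeat spaced by 2 and 54 (0.164%) the repeat spaced by 1, and 140 (0.426%) held any of them. Among the genes described here only Cyp26a1 and Rarb held a match, each of the kind spaced by 5 bases. They are shown because the 2 genes had unlike patterns over the clusters, with the repeat in capitals, 5′ to 3′ in the gene's direction. The first is chr19:37697678-37697797 on the plus strand and the second is chr14:16575509-16575533 on the minus strand.
Cyp26a1: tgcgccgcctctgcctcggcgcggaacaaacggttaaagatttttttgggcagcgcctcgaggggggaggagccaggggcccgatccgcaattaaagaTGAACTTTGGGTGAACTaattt
Rarb: gaagGGTTCACCGAAAGTTCActcg
In Cyp26a1 the repeat reads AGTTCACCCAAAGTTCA on the opposite strand, 32 to 16 bases before the start. In Rarb it reads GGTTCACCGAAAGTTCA, 53 to 37 bases before the start, where the gene annotation (GENCODE M21) also places an exon of the gene. A match describes the letters only and was not tested as a binding site.

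**Figure D1:**
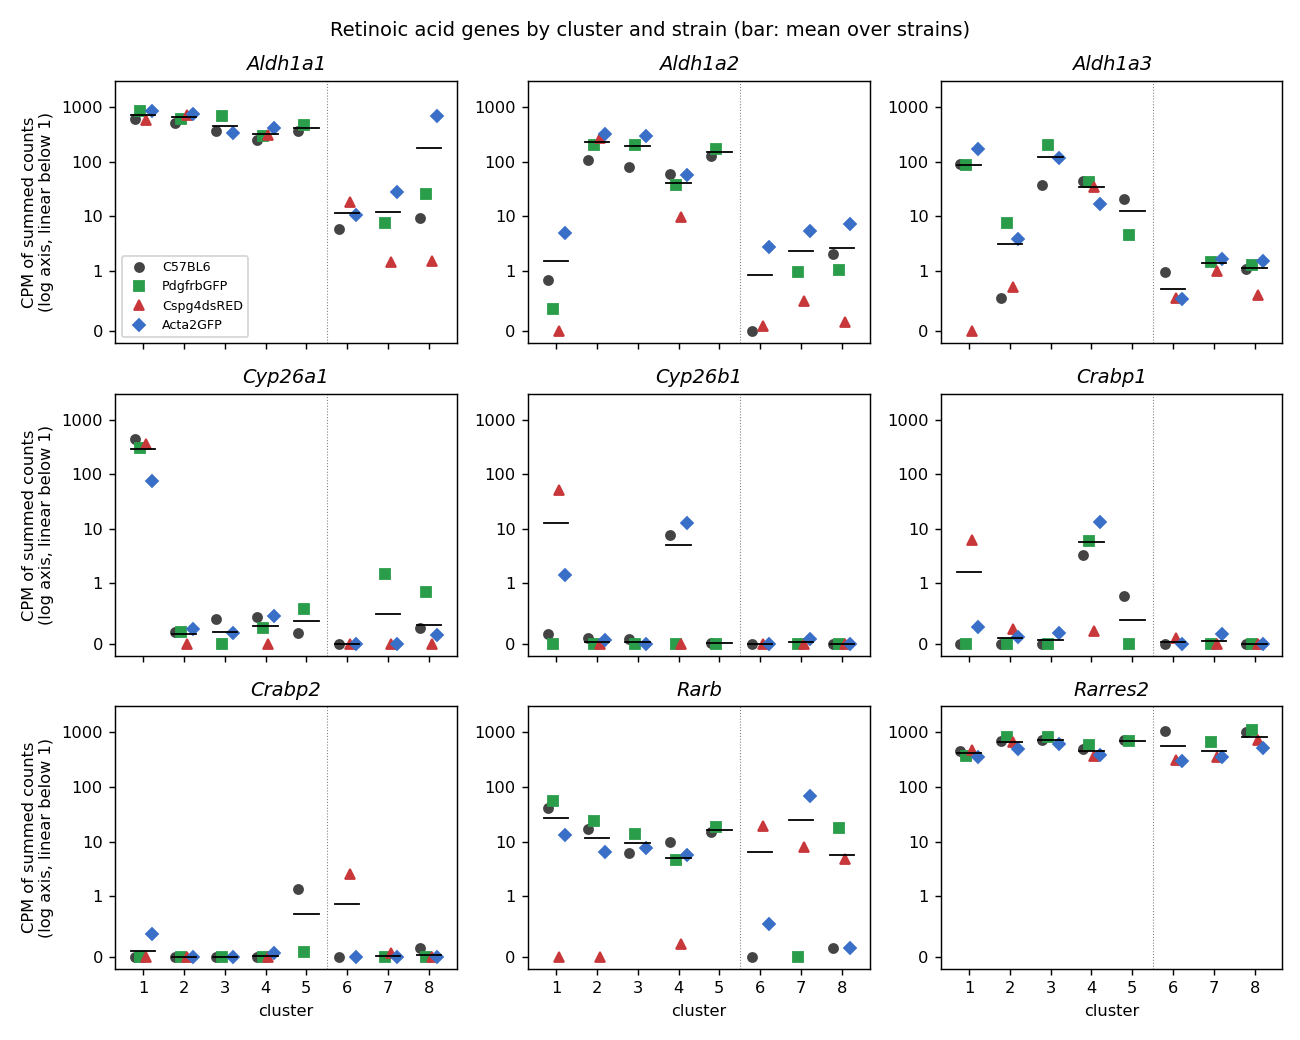
CPM of the summed counts (log axis, linear below 1) of each gene by cluster, 1 point per strain with at least 3 cells, the bar marking the mean over strains and the dotted line separating fibroblast clusters 1 to 5 from mural clusters 6 to 8. Cyp26a1 lies at 74.0 to 439 CPM in cluster 1 and at or below 1.47 CPM in every other cluster, Aldh1a2 is at most 4.81 CPM in cluster 1, and Aldh1a1 in the Acta2GFP cells of cluster 8 lies at 681 CPM.

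Aldh1a2, Aldh1a3, Cyp26a1 and Crabp1 were called higher in fibroblasts than in mural cells, Crabp1 with only 8 cells at 10 reads or more. Aldh1a1, the dehydrogenase carried by the most cells, had higher sums in the fibroblasts of every strain but did not pass the test. Clusters 1 to 5 were compared with clusters 6 to 8 over the sums of the 4 strains, with edgeR's quasi-likelihood test and Benjamini-Hochberg adjustment over 15117 genes. The test called 5.93% of all genes, 3.47% higher and 2.45% lower in fibroblasts. Of the 9 genes, 7 passed the filter on low counts and 4 were called, all higher, and Cyp26b1 and Crabp2 were not tested. Cyp26a1 and Crabp1 had few or no mural reads and passed the filter through their fibroblast sums. The clusters were drawn by the authors from these same counts, so these p-values are no independent test of the split.

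Aldh1a2 (ENSMUSG00000013584, chromosome 9, 71215789 to 71296243, plus strand, GRCm38 as below) had fibroblast levels of 91.3, 124, 139 and 169 CPM in C57BL6, PdgfrbGFP, Cspg4dsRED and Acta2GFP. Mural cells of the same strains had 1.74, 1.02, 0.311 and 5.71 CPM, so the ranges did not overlap. edgeR gave 5.90 ± 0.84 on the log2 scale (fold change ± SE, 4 sums a side, adjusted p = 0.003), and 12 of 13 alternative settings kept the call. Over the 13 the log2 fold change ran from 1.62 to 6.9 and the adjusted p from 2.6e-13 to 0.16, the latter p with limma.

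Aldh1a3 (ENSMUSG00000015134, chromosome 7, 66390890 to 66427517, minus strand) was scarcer, at 27.1, 30.2, 15.4 and 57.2 CPM in fibroblasts in the same order of strains. Its mural sums were 1.04, 1.31, 0.791 and 1.51 CPM, again without overlap, and 0 of the 353 mural cells held 10 reads or more, which allows a share of up to 0.850%. edgeR gave a log2 fold change of 4.77 ± 0.76 (SE) with an adjusted p of 0.0052, and 11 of 13 alternatives kept the call, with adjusted p from 1.1e-15 to 0.5. The call was lost without Acta2GFP (4.53 ± 1.01, adjusted p = 0.06) and with limma (0.60 ± 0.36, adjusted p = 0.5).

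Aldh1a1 (ENSMUSG00000053279, chromosome 19, 20492715 to 20643465, plus strand) had 373, 500, 477 and 613 CPM in C57BL6, PdgfrbGFP, Cspg4dsRED and Acta2GFP fibroblasts. Mural sums were 8.57, 23.8 and 6.56 CPM in C57BL6, PdgfrbGFP and Cspg4dsRED but 239 CPM in Acta2GFP. The ranges did not overlap, yet the Acta2GFP sum stood closer to the fibroblasts than to the other mural sums. The log2 fold change of 2.83 ± 1.02 did not pass (SE, adjusted p by edgeR = 0.16). It was 4.48 ± 0.91 in the fit blocked by strain (adjusted p = 0.048), and 4 of 12 alternatives that kept these cells or left out a whole strain or cluster called it, with adjusted p from 0.0062 (without Acta2GFP) to 0.43.

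The high mural sum of Aldh1a1 came from 15 Acta2GFP cells of cluster 8. Their sum was 681 CPM, against 25.6 CPM in PdgfrbGFP, 9.08 in C57BL6 and 1.5 in Cspg4dsRED, and 10 of the 15 cells held 10 reads or more. The fibroblast marker sum was 4641 CPM in the 15 cells and 780 to 1541 CPM in the other strains' cluster 8 cells. Pericyte markers were at 4057 against 12208 to 15046 CPM, and smooth muscle markers at 4033 against 201 to 1170 CPM. Pdgfra, the receptor that marks fibroblasts, was at 30.0 CPM against 0.900 to 7.59 CPM. The part of these markers in the Aldh1a1 level was not tested. Without the 15 cells, a setting chosen after seeing the data, the fibroblast to mural log2 fold change of Aldh1a1 was 4.87 ± 0.54 (SE). The 15 cells were singled out for their Aldh1a1 level, so this value is a description and not a test.

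**Figure D2:**
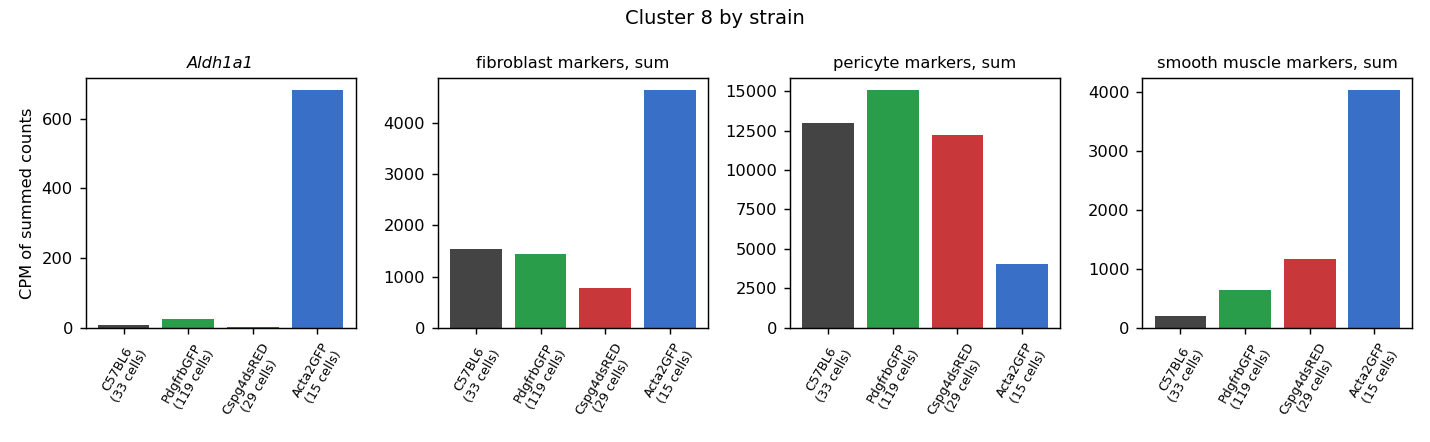
CPM of the summed counts in cluster 8 by strain (bars, linear axes from 0), for Aldh1a1 and for the fibroblast, pericyte and smooth muscle marker sums. The Acta2GFP bar is at 681 CPM for Aldh1a1 and 4641 CPM for fibroblast markers, above every other strain, and at 4057 CPM for pericyte markers, below every other strain.

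Among the fibroblast clusters the 3 dehydrogenases did not follow the same order. Aldh1a1 had its highest mean in cluster 1 (715 ± 140 CPM, SD, 4 strains) and cluster 2 (644 ± 107), then cluster 3 (458 ± 186, 3 strains), cluster 5 (415 ± 81.0, 2 strains) and cluster 4 (318 ± 73.4, 4 strains). Each neighbouring pair in that order overlapped in range. Aldh1a2 was highest in cluster 2 (226 ± 93.5 CPM), cluster 3 (191 ± 107) and cluster 5 (149 ± 32.6), which overlapped, followed without overlap by cluster 4 (40.7 ± 22.9), and cluster 1 had 1.51 ± 2.23. Aldh1a3 was highest in cluster 3 (120 ± 83.8 CPM) and cluster 1 (86.7 ± 69.1), then cluster 4 (33.8 ± 12.1), cluster 5 (12.5 ± 11.4) and cluster 2 (3.14 ± 3.26), each overlapping the next.

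Divided by exon length the levels of the 3 enzymes can be set roughly beside each other. The length used joins all annotated exons (4937 bases for Aldh1a1, 2264 for Aldh1a2, 4617 for Aldh1a3). The transcripts in these cells may be shorter, so the values depend on the annotation. In cluster 2 Aldh1a1 was at 130 and Aldh1a2 at 99.8 CPM per kb, with Aldh1a3 at 0.680. Cluster 3 held 92.7, 84.4 and 26.0 CPM per kb of Aldh1a1, Aldh1a2 and Aldh1a3, the highest value of Aldh1a3. In cluster 1 the values were 145, 0.666 and 18.8 CPM per kb in the same order.

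**Figure D3:**
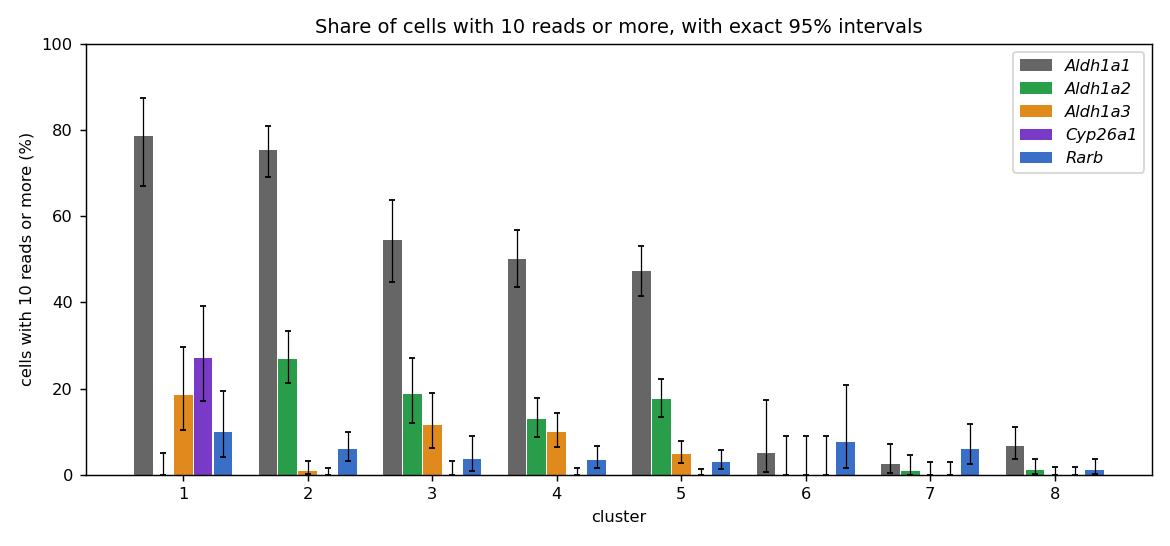
Share of cells (%) with 10 reads or more of Aldh1a1, Aldh1a2, Aldh1a3, Cyp26a1 and Rarb in each cluster (bars from 0, whiskers exact 95% intervals that cover counting error only). Cyp26a1 reaches 27.1% in cluster 1 and is 0 in all other clusters, and Aldh1a2 is 0 in cluster 1 and 26.9% in cluster 2.

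The shares of cells that carried each enzyme differed between clusters in much the same way as the levels. A cell was counted as carrying a gene at 10 reads or more, since lower counts were spread over many wells. Aldh1a1 was carried by 78.6% of cluster 1 cells (67.1 to 87.5%, exact 95% interval), 75.3% of cluster 2, 54.5% of cluster 3, 50.2% of cluster 4 and 47.3% of cluster 5. Aldh1a2 was carried by 26.9% of cluster 2, 18.8% of cluster 3, 12.9% of cluster 4, 17.5% of cluster 5 and 0 of the 70 cells of cluster 1, which allows a share of up to 4.29%. Aldh1a3 was carried by 18.6% of cluster 1, 11.6% of cluster 3, 9.87% of cluster 4, 4.79% of cluster 5 and 0.913% of cluster 2. With every cell thinned to 50000 counts, the shares with any read of Aldh1a2 were 15.7, 36.1, 25.0, 20.6 and 23.3% in clusters 1 to 5, against 38.6, 53.9, 48.2, 39.9 and 35.3% unthinned. Clusters 6, 7 and 8, which serve as the background, had 0, 8.55 and 7.18% thinned and 7.69, 23.7 and 19.4% unthinned.

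A single dehydrogenase per cell, mostly Aldh1a1, was more common than 2. In cluster 2, 52.1% of cells carried Aldh1a1 alone, 22.4% Aldh1a1 with Aldh1a2, 4.57% Aldh1a2 alone and 20.1% none of the 3. In cluster 1, 61.4% carried Aldh1a1 alone, 17.1% Aldh1a1 with Aldh1a3 and 20.0% none. None of the 3 was carried by 36.6, 38.6 and 42.1% of the cells of clusters 3, 4 and 5 and by 93.4 to 96.6% of the mural cells. In clusters 2 to 5 Aldh1a2 was carried by 161 of 856 cells, Aldh1a3 by 52 and both by 8, and whether they met less often than their shares give was not tested.

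Cluster 1 was then set against clusters 2 to 5. Cyp26a1 was higher and Aldh1a2 lower in cluster 1, so the cluster that held the breakdown enzyme had the least Aldh1a2 among the fibroblast clusters. Of 13201 genes tested, edgeR called 1.33%, 0.561% higher and 0.773% lower in cluster 1, and of the 8 genes tested here it called 1 in each direction. Aldh1a2 had 0.845, 0.372, 0 and 4.81 CPM in C57BL6, PdgfrbGFP, Cspg4dsRED and Acta2GFP, against 94.6, 139, 151 and 215 CPM in clusters 2 to 5. The ranges did not overlap, and Acta2GFP gave 51 of the 59 Aldh1a2 reads of cluster 1, spread over 20 of its 26 cells at fewer than 10 reads each. edgeR gave a log2 fold change of -6.41 ± 0.94 (SE) with an adjusted p of 0.0077. With 51, 5, 3 and 0 reads in the cluster 1 sums, Aldh1a2 passed the filter on low counts through clusters 2 to 5 alone, and the clusters were drawn from these counts, so this p is no independent test. The call was lost without C57BL6 (-6.36 ± 1.15, adjusted p = 0.08), without PdgfrbGFP (-6.07 ± 1.06, 0.062) and with limma (-1.97 ± 0.73, 0.57), and the other 8 of 11 alternatives kept it.

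Neither of the other dehydrogenases was called in cluster 1. Aldh1a1 had 615, 836, 574 and 835 CPM in C57BL6, PdgfrbGFP, Cspg4dsRED and Acta2GFP, against 364, 458, 469 and 551 CPM in clusters 2 to 5, without overlap. Its log2 fold change of 0.65 ± 0.27 had an edgeR adjusted p of 0.45, from 0.15 to 0.92 over 11 alternatives. Aldh1a3 had 91.8, 85.8, 0 and 169 CPM against 24.7, 23.2, 16.7 and 25.9 CPM, higher in every strain but Cspg4dsRED, which gave only 3 cells, and the ranges overlapped. edgeR gave a log2 fold change of 1.97 ± 1.03 (SE) with an adjusted p of 0.67.

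Clusters 2, 3, 4 and 5 were each set against the other 3 of them. edgeR called 0 of 13870, 14803, 14104 and 16214 genes, so 0% of all genes and none of the 5, 6, 5 and 7 genes described here that were tested. At an unadjusted p under 0.05 it held 641, 895, 670 and 630 genes, of which 3, 2, 2 and 0 are genes described here. DESeq2's Wald test called 169, 387, 184 and 124 genes and limma 2, 5, 5 and 0. Aldh1a3 and Aldh1a1 in cluster 2, Aldh1a3 in cluster 3 and Aldh1a2 in cluster 4 were the genes of this list that DESeq2 called.

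The values behind the 4 calls of DESeq2 follow. Aldh1a2 in cluster 4 was at 58.3, 37.1, 9.65 and 57.6 CPM in C57BL6, PdgfrbGFP, Cspg4dsRED and Acta2GFP, with no overlap with the 109 to 323 CPM of clusters 2, 3 and 5. edgeR gave a log2 fold change of -2.47 ± 0.53 (SE) with an adjusted p of 0.22 (from 0.00092 to 1.0 over 11 alternatives). Aldh1a3 in cluster 2 was at 0.552, 7.50, 0.738 and 3.76 CPM in the same order, also without overlap, against 28.1 to 43.0 CPM in clusters 3 to 5 (log2 fold change -3.29 ± 1.00, edgeR adjusted p = 0.64). The cluster 2 sums of Aldh1a3 nevertheless overlapped those of cluster 5 alone, where PdgfrbGFP had 4.49 CPM. Cluster 3 had 37.8, 205 and 117 CPM of Aldh1a3 in C57BL6, PdgfrbGFP and Acta2GFP, above the 10.6 to 22.3 CPM of clusters 2, 4 and 5 (3.05 ± 0.92, edgeR adjusted p = 0.38). Aldh1a1 in cluster 2 was at 507, 612, 715 and 742 CPM without overlap, against 292 to 409 CPM in clusters 3 to 5 (0.89 ± 0.22, edgeR adjusted p = 0.36).

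Apart from 1 cell, C57BL6 fibroblasts came from 2 plates, which differed in these enzymes. Plate 203s had 66.1% of 292 fibroblasts with Aldh1a1 and 22.6% with Aldh1a2, and plate 316s had 43.4% and 12.4% of 251. In cluster 2 the levels were 578 and 408 CPM of Aldh1a1 and 136 and 63.8 CPM of Aldh1a2 on plates 203s and 316s. The reverse held for Aldh1a2 in cluster 4, at 40.4 and 84.5 CPM. The order of Aldh1a2 with cluster 2 above cluster 4 was therefore present on plate 203s and not on plate 316s.

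In mural cells the dehydrogenases were at low levels apart from the Acta2GFP cells of cluster 8. edgeR called 0.0330% of 12117 genes between cluster 6 and clusters 7 and 8, and 0.194% of 11867 genes between clusters 8 and 7. It called none of the 4 genes described here that were tested in either, and DESeq2 and limma called none of them. Unadjusted p was under 0.05 for 695 and 817 genes, and for 0 and 1 of the genes described here, the latter Aldh1a1 in cluster 8 (log2 fold change 4.32 ± 1.75, edgeR adjusted p = 0.6). Outside those cells the mural sums were at most 27.3 CPM of Aldh1a1, 5.27 CPM of Aldh1a2 and 1.67 CPM of Aldh1a3.

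Aldh1a1 has a close paralog, Aldh1a7, on the opposite strand of chromosome 19 at 20692953 to 20727562. Of 4934 distinct runs of 50 bases in Aldh1a1 transcripts, 151 (3.06%) also occurred in Aldh1a7, where they made up 7.49%, so a small part of the reads could be split between them. No run was shared between Aldh1a1, Aldh1a2 and Aldh1a3, between the Cyp26 genes or between Crabp1 and Crabp2. Aldh1a7 reached 10 reads in 6 cells, all in cluster 1, and each of the 6 also carried Aldh1a1. Its cluster 1 sums were 17.6, 0.619, 344 and 54.5 CPM in C57BL6, PdgfrbGFP, Cspg4dsRED and Acta2GFP, a mean of 50.5 CPM per kb, and the 344 CPM came from a single cell.

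**Figure D4:**
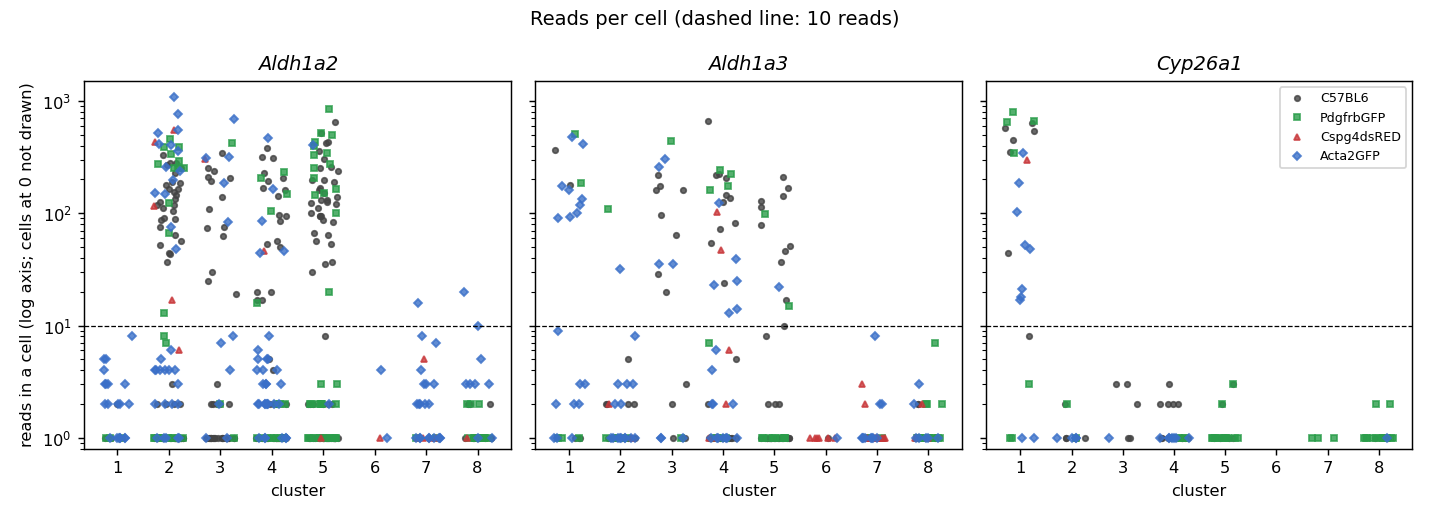
Reads of Aldh1a2, Aldh1a3 and Cyp26a1 in each cell (log axis, cells at 0 not drawn) by cluster, coloured by strain, with a dashed line at 10 reads. All 19 cells with 10 reads or more of Cyp26a1 lie in cluster 1, at 17 to 799 reads, and no cell of cluster 1 has more than 8 reads of Aldh1a2.

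Cyp26a1 (ENSMUSG00000024987, chromosome 19, 37697798 to 37701536, plus strand), the enzyme that clears retinoic acid in the embryo, reached 10 reads only in cells of cluster 1. Its level there was 439, 305, 364 and 74.0 CPM in C57BL6, PdgfrbGFP, Cspg4dsRED and Acta2GFP. Clusters 2 to 5 of the same strains had 0.294, 0.373, 0 and 0.317 CPM. In all 4 strains cluster 1 lay above clusters 2 to 5 without overlap, and Acta2GFP was the lowest. edgeR gave 10.03 ± 0.88 on the log2 scale (fold change ± SE, 4 sums a side, adjusted p = 0.00045). Over 11 alternatives the log2 fold change ran from 2.67 to 10.39 and the adjusted p from 1.7e-46 to 0.048. The gene passed the filter on low counts through cluster 1 alone, in clusters drawn from these counts, so the p describes the likeness of the strains and is no independent test.

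Within cluster 1 the gene was detected at 10 reads or more in a minority of cells, and lower counts do not show that it was off. At least 10 reads were found in 19 of 70 cells (27.1%, 17.2 to 39.1%), namely 6 of 19 in C57BL6, 4 of 22 in PdgfrbGFP, 1 of 3 in Cspg4dsRED and 8 of 26 in Acta2GFP. These 19 cells held 98.1% of the 6242 Cyp26a1 reads of the whole data set. Reads per carrying cell ran from 44 to 635 in C57BL6 (median 495), from 344 to 799 in PdgfrbGFP (median 656) and from 17 to 340 in Acta2GFP (median 50), and the Cspg4dsRED cell had 295. Acta2GFP, with the lowest sum, thus had fewer reads per carrying cell, and part of its share of carrying cells lay near the threshold of 10 reads. Both C57BL6 plates held the gene in cluster 1, at 443 CPM over 16 cells and 413 CPM over 3 cells. Thinned to 50000 counts, 30.0% of cluster 1 cells had a read, against at most 3.00% in the other clusters, where the unthinned shares were 0 to 11.2% and that of cluster 1 was 35.7%.

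Low counts of Cyp26a1 outside the 19 cells followed the position of the wells. Between 1 and 9 reads were found in 90 wells, and 87 of them (96.7%) shared a plate row or column with a carrying well. Among the 1170 wells with 0 reads the share was 30.7%. The same shares were 81.8 and 7.52% for Cyp26b1, 58.3 and 17.2% for Crabp1 and 40.0 and 4.48% for Crabp2. They were 23.2 and 9.30% for Aldh1a7, with 69 wells at 1 to 9 reads, so most of its low counts lay elsewhere. How these reads arose was not tested.

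Detection of other genes in the 19 carrying cells and the other 51 cells of cluster 1 was counted without a test. Aldh1a1 was carried by 17 of the 19 and 38 of the 51, Aldh1a3 by 3 and 10, Rarb by 3 and 4, and Aldh1a2 by 0 of both. Of the 5 valve interstitial markers, Fmod was carried by 19 of the 19 and 33 of the 51, Wif1 by 18 and 29, Comp by 15 and 33, Scx by 10 and 11, and Cyp2e1 by 7 and 24, the last in a smaller share of the cells with Cyp26a1. The retinaldehyde reductase Dhrs3 was carried by 14 and 24 cells. So cells with Cyp26a1 mostly carried Aldh1a1 and never Aldh1a2 at this depth, and the same held for the other cells of cluster 1.

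Between fibroblasts and mural cells Cyp26a1 was called as well, but its level lay in cluster 1. Fibroblast sums were 15.9, 34.3, 28.0 and 16.4 CPM in C57BL6, PdgfrbGFP, Cspg4dsRED and Acta2GFP and mural sums 0.232, 0.923, 0 and 0.0488 CPM, without overlap. edgeR gave a log2 fold change of 6.22 ± 1.46 (SE) with an adjusted p of 0.033. Of 12 alternatives 7 kept the call, with adjusted p from 1.2e-06 to 0.32. It was lost when strain was blocked (7.38 ± 1.62, adjusted p = 0.058), without any of Acta2GFP, C57BL6 or Cspg4dsRED (adjusted p 0.12, 0.13 and 0.065) and with limma (0.30 ± 0.14, adjusted p = 0.32). Without clusters 1 and 6 it did not pass the filter on low counts, since 83 reads remained in 856 fibroblasts.

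Cyp26b1 (ENSMUSG00000063415, chromosome 6, 84571414 to 84593908, minus strand), the hydroxylase better known from limb and bone, was carried by 4 cells of 1279. A cluster 4 cell of C57BL6 held 346 of the 605 reads (57.2%) and a cluster 4 cell of Acta2GFP held 192. The other 2 were cluster 1 cells, with 39 reads in Cspg4dsRED and 15 in Acta2GFP, and both also carried Cyp26a1. In cluster 1 its sums were 0.169, 0, 50.6 and 1.41 CPM in C57BL6, PdgfrbGFP, Cspg4dsRED and Acta2GFP, which overlapped the 0 to 5.12 CPM of clusters 2 to 5. The log2 fold change of 2.69 ± 2.29 had an edgeR adjusted p of 0.92. The third member of the family, Cyp26c1, had 0 reads.

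Crabp1 (ENSMUSG00000032291, chromosome 9, 54764748 to 54773110, plus strand), which binds retinoic acid in the cytoplasm, was a gene of rare fibroblasts. At least 10 reads were found in 8 cells, 7 of them in cluster 4 and 1 in cluster 5. The cluster 4 cells were 4 of Acta2GFP (10, 44, 65 and 90 reads), 2 of C57BL6 (57 and 95) and 1 of PdgfrbGFP (115), so 3 strains contributed. Cluster 4 sums were 3.35, 5.90, 0.210 and 13.6 CPM in C57BL6, PdgfrbGFP, Cspg4dsRED and Acta2GFP.

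In all fibroblasts Crabp1 had 529 reads against 3 in mural cells. That is a ratio of 50.5 after division by total counts (17.2 to 245, exact 95% interval for counting error only). The interval takes reads as independent, but 97.0% of all Crabp1 reads lay in 8 cells, so it is too narrow. Counted by cells, 8 of 926 fibroblasts and 0 of 353 mural cells carried it. A count of 0 in 353 allows a share of up to 0.850%, close to the fibroblast share. Fibroblast sums were 1.16, 1.59, 0.663 and 4.44 CPM in C57BL6, PdgfrbGFP, Cspg4dsRED and Acta2GFP, above the 0 to 0.0975 CPM of the mural sums. The edgeR call (log2 fold change 5.72 ± 1.27, adjusted p = 0.025) was held in 5 of 12 alternatives, with adjusted p from 0.0034 to 0.45. The call ended when strain was blocked (5.85 ± 1.24, adjusted p = 0.053), when any of the 4 strains was left out (adjusted p 0.062 to 0.11), without the filter on low counts (adjusted p = 0.13) and with limma (0.16 ± 0.09, adjusted p = 0.45).

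Crabp2 (ENSMUSG00000004885, chromosome 3, 87948666 to 87953376, plus strand), which hands retinoic acid to its receptors, was carried by 2 cells. A cluster 5 cell of C57BL6 held 66 of the 103 reads and a cluster 6 cell of Cspg4dsRED held 28. The gene passed the filter on low counts in none of the comparisons.

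Rarb (ENSMUSG00000017491, chromosome 14, 16430839 to 16819156, minus strand), the retinoic acid receptor beta, was carried by 53 cells, 41 fibroblasts and 12 mural cells. Unlike Cyp26a1, whose promoter holds a repeat of the same kind, it was found in all 8 clusters, at 4.99 ± 3.88 (cluster 4) to 27.4 ± 25.3 CPM (cluster 1), and every neighbouring pair of clusters overlapped. Cluster 1 sums were 40.4, 55.9, 0 and 13.4 CPM in C57BL6, PdgfrbGFP, Cspg4dsRED and Acta2GFP. In mural cells the 803 reads of the Acta2GFP cells of cluster 7 (67.2 CPM, 4 carrying cells) stood above the other sums, the next being 18.9 CPM in Cspg4dsRED cells of cluster 6.

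No comparison called Rarb. Between fibroblasts and mural cells it had 13.5, 19.6, 0.0948 and 7.76 CPM against 0.116, 15.9, 10.7 and 39.3 CPM in C57BL6, PdgfrbGFP, Cspg4dsRED and Acta2GFP. Fibroblasts were higher in C57BL6 and PdgfrbGFP and lower in the other strains, and the log2 fold change was -0.65 ± 1.41 (SE, adjusted p by edgeR = 0.9). Among C57BL6 fibroblasts 20 of 292 (6.85%) carried it on plate 203s and 3 of 251 (1.20%) on plate 316s. Exons of Rarb overlap Top2b on the opposite strand, whose 27737 reads had a Pearson r of 0.29 with Rarb over the 27 sums, which share their cells and libraries. The strand setting of the counting is not given in the sources used here.

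Rarres2 (ENSMUSG00000009281, chromosome 6, 48569696 to 48572789, minus strand) encodes chemerin, a secreted chemoattractant that was first found as a gene induced by a synthetic retinoid. It was the most widespread gene of the list, with a read in 1258 of 1279 cells and 299 to 1089 CPM in the 27 sums. Mean levels ran from 411 ± 59.9 CPM (SD) in cluster 1 to 832 ± 264 in cluster 8, and neighbours in the order overlapped. Between fibroblasts and mural cells it had 641, 655, 501 and 439 CPM against 991, 1046, 411 and 399 CPM in C57BL6, PdgfrbGFP, Cspg4dsRED and Acta2GFP. Fibroblasts were lower in C57BL6 and PdgfrbGFP and higher in Cspg4dsRED and Acta2GFP, and edgeR did not call it (log2 fold change -0.37 ± 0.40, SE, adjusted p = 0.74). The mural sums mixed clusters unevenly. Cluster 8 gave 33 of 37 and 119 of 128 mural cells in C57BL6 and PdgfrbGFP. In Cspg4dsRED and Acta2GFP it gave 29 of 137 and 15 of 51. Cluster 8 alone had 1001, 1089, 728 and 510 CPM in the 4 strains in that order, above their fibroblast sums. Cluster 7 alone had 656, 353 and 353 CPM in PdgfrbGFP, Cspg4dsRED and Acta2GFP. The part of this mix in the direction was not tested. In cluster 1 the fold change was -0.50 ± 0.26 on the log2 scale, with an edgeR adjusted p of 0.67.

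The Rarres2 counts carry a limit of their own. Its exons overlap Lrrc61 on the opposite strand, whose reads amounted to 50.3% of those of Rarres2 and followed them with a Pearson r of 0.92 over the 27 sums. Where the exons overlap, reads of the 2 genes cannot be told apart without strand.

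**Figure D5:**
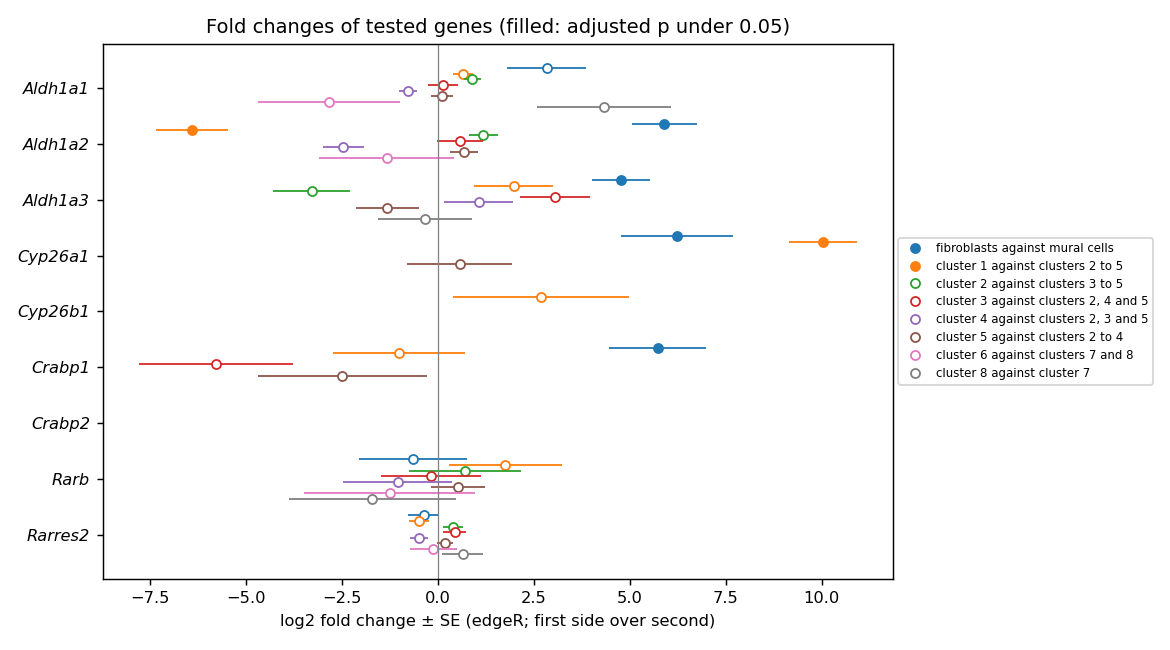
Log2 fold changes ± SE from edgeR for each gene and comparison that passed the filter on low counts, filled where the adjusted p was under 0.05. The filled points are Aldh1a2, Aldh1a3, Cyp26a1 and Crabp1 in fibroblasts against mural cells, Cyp26a1 (10.03) and Aldh1a2 (-6.41) in cluster 1, and Crabp2 has no point.

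A wider list of 42 retinoid genes was described in the same fits. Between fibroblasts and mural cells 26 were tested, 3 were called higher and 1 lower (over all genes 3.47% and 2.45%), and their median log2 fold change was -0.07 against -0.02 for all genes. The retinol dehydrogenase Adh1 was higher (5.52 ± 0.77, edgeR adjusted p = 0.0027), with means of 268 ± 36.7 CPM in cluster 3, 157 ± 35.2 in cluster 5, 79.8 ± 50.8 in cluster 2, 15.1 ± 17.5 in cluster 4 and at most 2.01 ± 1.02 in clusters 1, 6, 7 and 8.

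The chemerin receptors divided. Cmklr1, through which chemerin signals, was higher in fibroblasts (5.90 ± 0.88, edgeR adjusted p = 0.0041), with 46.1 ± 58.2, 38.0 ± 6.93, 2.75 ± 3.99, 14.9 ± 9.29 and 17.1 ± 3.71 CPM in clusters 1 to 5 and at most 0.961 ± 1.51 in mural clusters. Cluster 3 was thus near the mural level, with a strain at 0. Cmklr1 passed the filter on low counts mainly through its fibroblast sums, in clusters drawn from these counts, so its p is no independent test. Ccrl2, which binds chemerin without signalling, was lower (-1.70 ± 0.42, edgeR adjusted p = 0.041), with 113 ± 155, 381 ± 267 and 114 ± 117 CPM in clusters 6, 7 and 8 and 43.7 to 63.9 CPM on average in clusters 1 to 5. Gpr1 was not called in any comparison and was carried by 8 cells of cluster 4.

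In cluster 1 against clusters 2 to 5, 26 of the 42 were tested and only Adh1 was called, lower (-6.37 ± 0.96, edgeR adjusted p = 0.0085). Over all genes 1.33% were called, 0.773% lower. Their median log2 fold change was -0.04 against -0.03 for all genes. Adh1 had 1.35, 0.495, 0 and 1.70 CPM in C57BL6, PdgfrbGFP, Cspg4dsRED and Acta2GFP there, and 0 of the 70 cells carried it. At these levels Adh1 passed the filter on low counts through clusters 2 to 5. The clusters were drawn from these counts, so its p is no independent test. Cluster 1 therefore had neither Adh1 nor Aldh1a2 above these traces. The nuclear receptors Rara, Rarg, Rxra, Rxrb and Rxrg and the co-regulators were called in none of the comparisons. In the other 6 comparisons edgeR called no gene of the wider list, and 1 to 5 of its genes had an unadjusted p under 0.05.

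Genes with the most similar pattern over the 27 sums were ranked by Pearson r of log2(CPM + 1) among 12508 genes. The sums share clusters, strains and depth, so the r values are descriptions. Cyp26a1 was followed by Uts2r (0.98), Scx (0.98) and Fzd9 (0.97), and Aldh1a2 by 6030408B16Rik (0.94), Gm37035 (0.91) and Adh1 (0.89). Aldh1a1 was followed by Medag (0.92), Gm20488 (0.92) and Gpm6b (0.91), and Aldh1a3 by Gcnt1 (0.84), Acot1 (0.83) and Bdh2 (0.82). The genes nearest to Rarres2 (Lrrc61 0.92, Ifitm2 0.82, Ifitm1 0.81), Rarb (Ift74 0.84, Dbr1 0.77, Smim20 0.76), Crabp1 (Plcxd3 0.86, Gjb5 0.83, Faim2 0.74) and Cyp26b1 (Atp6v0a4 0.83, Plcxd3 0.77, Iqgap2 0.75) follow, and Lrrc61 overlaps Rarres2. Crabp2 did not reach the level required for this ranking.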

How the data were processed

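Single-cell libraries were made by the authors with Smart-seq2 from sorted mouse heart cells. Per the study's methods and the submitters' processing notes, reads were demultiplexed with bcl2fastq, mapped to GRCm38 (mm10) with TopHat2 over Bowtie or Bowtie2 and counted per gene with featureCounts of Subread, and the annotation release and strand setting are not given in the sources used here. The authors deposited raw read counts per gene and cell, after removing low-quality cells, cells with neither Pdgfra nor Pdgfrb, and those of endothelial or immune type. The table held 46517 genes and 92 ERCC spike-in rows, which took 1.82% of counts and were left out. Totals were 46268 to 1302397 counts per cell (median 274504), and no columns were identical. Per the study's methods, samtools was used on the alignments to take out what the methods call doublets, and cells with very many expressed genes were dropped as possible doublets before deposit; no doublet caller was run here. Libraries carried no molecular identifiers, so intervals and floors cover counting error only.

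For each comparison the counts of a strain were added up on either side (at least 3 cells on both sides) and tested with edgeR 4.0.16 in R 4.3.3 (filterByExpr with a minimum count of 10, TMM, glmQLFit and glmQLFTest, Benjamini-Hochberg 0.05). Alternatives used DESeq2 1.42.0, limma 3.58.1 on the mean of log2(CPM + 1), no filter, a strain block, plates as units, larger sums and leaving out strains or clusters. Sums of a strain were paired by strain, which for the reporter strains is also 1 plate and sort, while C57BL6 cells of clusters 6 and 8 came from plate 203s and its fibroblasts from 203s and 316s. The correlations of paired deviations were 0.02 to 0.27 over 27 pairs. Scripts were tested on simulated data. The threshold of 10 reads for a carrying cell was chosen after seeing the data. Thinning drew 50000 counts per cell and left out 2 shallower cells. Intervals are exact (Clopper-Pearson, 95%, scipy 1.17.1), and the limit for a count of 0 among the 353 mural cells is 3 counts. CPM per kb divides by the union of GENCODE M21 exons.

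Genes and lists were chosen with earlier results of these data known. All 9 genes are named whatever their values. From the wider list of 42, genes past the threshold are named, except 1 that is not reported here, plus Aldh1a7, Cmklr1, Gpr1 and Ccrl2; Dhrs3 and the valve genes in cluster 1 cells were named after their values were seen. The most similar genes are the 3 of highest Pearson r for each gene with at least 10 CPM in a sum. Of the marker lists not given above, sums were at most 33.6 CPM for immune, 8.83 for Schwann, 277 for endothelial and 672 for cardiac muscle markers.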

Additional observations from a re-analysis of the deposited data

Results flagged for a closer look

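In groups of 4 strains, the gap between the most extreme sum and its nearest neighbour was set against the range of the group. Of 26 groups tested, 2 held a sum that stood apart. The chance rate of about 1 in 20 assumes normally distributed values, and even at that rate 2 of 26 would not stand out. Sums that rest on a few cells need not follow that distribution, so the 2 flags are descriptions and not a test. How often sums of other genes stood apart in this way was not tested. Aldh1a1 in cluster 8 was at 681 CPM in Acta2GFP, with a median of 9.08 CPM in the other strains, and the gap was 0.965 of the range. Cyp26b1 in cluster 1 was at 50.6 CPM in Cspg4dsRED, with a median of 0.169 CPM in the other strains and a gap of 0.972 of the range, and it rests on 41 reads, 39 of them in 1 of the 3 cells.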

How the results depend on the processing

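Among the 9 genes, no fold change with an unadjusted p under 0.05 changed sign under any alternative run, and the wider list was not refitted under alternatives. The 4 genes called between fibroblasts and mural cells became 2 without clusters 1 and 6 (Aldh1a2 and Aldh1a3) and 2 to 3 when a strain was left out. Without Acta2GFP the 2 were Aldh1a2 and Aldh1a1, the latter gained (adjusted p = 0.0062). Without C57BL6 or Cspg4dsRED they were Aldh1a2 and Aldh1a3, to which Cyp26a1 was added without PdgfrbGFP. With limma none of the 4 was called and 1 other gene, Aldh1a1, was (adjusted p = 0.025). The 2 called in cluster 1 became 1 with limma (Cyp26a1) and 1 to 2 when a strain was left out. DESeq2's Wald test called 2 genes in cluster 2, 1 in cluster 3 and 1 in cluster 4, where edgeR called 0, and without the filter on low counts 1 gene (Aldh1a1) was called in cluster 8 against cluster 7. The causes were not tested. Strain as a replicate block called 3 genes between fibroblasts and mural cells, with Aldh1a1 (log2 fold change 4.48) gained and Crabp1 and Cyp26a1 lost, and it changed no other call among the 9 genes. Counts over all genes moved more: the 896 between fibroblasts and mural cells became 1926 with DESeq2, 367 with limma and 409 to 605 without a strain. In cluster 1 the 176 became 689 with DESeq2, 52 with limma, 98 with the block, 110 with at least 10 cells per sum and 26 to 110 without a strain. The 4 of cluster 6 became 100 without the filter, 341 with DESeq2, 11 with limma, 107 with the block, 14 without the Acta2GFP cells of cluster 8 (chosen after seeing the data) and 0 to 63 without a strain. The 23 of cluster 8 became 201, 380, 45 and 82 in the same order, 45 with DESeq2 size factors, 0 with at least 10 cells and 0 to 124 without a strain. The 0 of clusters 2, 3, 4 and 5 became 2, 19, 5 and 31 without the filter and 24, 19, 22 and 1 with plates as units, and 35 in cluster 3 with the block. Leaving out a strain was not possible for cluster 5, nor was the minimum of 10 cells for cluster 6, since 1 strain would remain. Shares moved beyond their intervals for 45 of 72 when thinned and 56 of 72 at 10 reads, while 4 of 72 levels moved as a mean over cells. Crabp1, Crabp2 and Cyp26b1 rest on 8, 2 and 4 carrying cells.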
